A study of Rattus norvegicus with 9 samples.

Results

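The extracellular matrix around an embryonic epithelium is cut by several protease families, each held in check by its own inhibitors. The genes described here are 64 such genes, measured by 90 probe sets, of 14217 genes that the array represents with a probe set of 1 gene symbol. They were chosen by symbol alone: the matrix metalloproteinases (Mmp), their tissue inhibitors (Timp) and Reck, the ADAM, ADAMTS and ADAMTS-like families, cathepsin K (Ctsk), the plasminogen activators Plat and Plau with the receptor Plaur, and the serpins of clades E and F. Their RNA was measured in 3 tissues of Sprague-Dawley rat embryos at embryonic day 13, none of them cultured, with 3 single-colour arrays of total RNA each. The ureteric bud (UB) is the outgrowth that invades the kidney mesenchyme and branches; about 100 buds, freed from embryonic kidneys with trypsin, made up each pool. WD with mesoderm (WD+IM in the labels) is the Wolffian duct, the parent duct, left with the mesodermal cells around it, pooled as about 50 pieces. The Wolffian duct alone (WD), from which the bud grows, was pooled as about 100 pieces and, like WD with mesoderm, was isolated without trypsin. Trypsin and tissue therefore cannot be told apart. The labels call the pools biological replicates, and it is their spread that the p-values measure.

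Matrix metalloproteinases are zinc enzymes, secreted or bound to the membrane, that cut collagens, gelatin and proteoglycans; TIMPs block them by plugging the active site and Reck does so from the cell surface. ADAM proteins sit in the membrane and release growth factors and receptors from it, while ADAMTS proteases are secreted and cut proteoglycans such as versican. Plasminogen activators turn plasminogen into plasmin, which serpins such as Serpine2 oppose. A bud that branches has to remodel its basement membrane and the matrix of the mesenchyme, and in the kidney both epithelium and mesenchyme are known to make these enzymes.

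The arrays carried values that move with the tissues and touch every result below. Of the hybridisation spikes, bioC gave 2.97 to 3.07 times the signal of bioB in UB. That ratio was also high, 3.02, for replicate 3 of WD with mesoderm, and was 0.910 to 1.07 for all WD arrays and the remaining 2 with mesoderm. The labels name no batch. Spike batch below means only whether this ratio lay above 2 on an array, a split made here from the values. Spike batch and tissue thus cannot be told apart between UB and WD. The beta-actin 3' to 5' ratio, a sign of RNA quality, was 1.48 to 2.30 in UB, 1.47 to 1.92 in WD with mesoderm and 2.19 to 4.87 in WD. The summed signal of 10 mesenchyme markers was 8519 to 12095 intensity units in UB, 213821 to 256148 in WD with mesoderm and 99392 to 133757 in WD, and all 10 were lower in UB than in either other tissue. Of those 10, Pdgfrb alone stayed at or below the 40th percentile of each UB array. The WD labelled as an isolated duct thus carried signal of mesenchyme genes. Duct epithelium markers, also 10, summed to 178335 to 192219, 74258 to 111234 and 228451 to 249469 in UB, WD with mesoderm and WD. The 9 endothelial markers on the array summed to 2575 to 3834 in UB, 36888 to 39590 in WD with mesoderm and 3928 to 5735 in WD, and in UB Emcn, Pecam1, Sox17, Tek and Tie1 did not exceed the 40th percentile on any array. In bulk tissue, fewer cells of a type and less RNA per cell cannot be told apart, and the part of these markers, of RNA quality and of the spike ratio in the results was not tested.

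**Figure D1:**
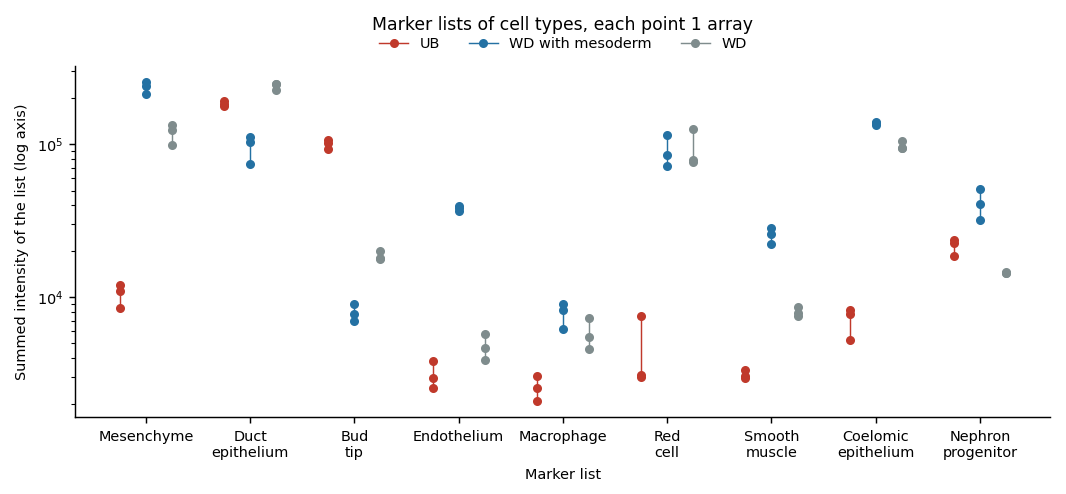
Summed signal of 9 lists of cell type markers (vertical axis, intensity units, log scale), with 1 point for each array and the 3 arrays of a tissue joined by a line, for UB, WD with mesoderm and WD. The mesenchyme list lies at 8519 to 12095 in UB and at 99392 or more in both duct tissues; the endothelium list is high only in WD with mesoderm among these tissues.

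Each gene was read from its brightest probe set, by mean log2 signal over all arrays, and tested if at least 3 of the 9 arrays exceeded the array's 40th percentile, which lay at 270 to 329 units in UB, 331 to 536 in WD with mesoderm and 469 to 569 in WD. Of the 64 genes, 40 passed and 24 did not. Adamts16 passed through the UB arrays alone and Adamts12 and Plau through those of WD with mesoderm alone. These 3 thus had to differ between tissues in whether they exceeded the array's percentile, and their p-values are not independent of the filter. Differences are of log2(intensity + 46), the first-named tissue minus the second, with their standard errors (SE), and a gene was called at an adjusted p under 0.05 over all 20330 probe sets tested. Any pair of the 3 comparisons has 3 arrays in common.

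Between UB and WD, 5 of the 40 genes were higher and 15 lower in UB, where 13.4% of all 10800 genes tested were higher and 19.6% lower (33.0% called in all). The 5 were Serpine2, Adamts16, Mmp17, Adamts1 and Adamts9. UB and WD did not overlap in 26 of the 40, against 51.8% of all genes. Between WD with mesoderm and WD, 13 were higher and 3 lower with mesoderm (Adamts15, Adam11 and Adam17), against 6.47% and 8.24% of all genes (14.7% in all); these tissues did not overlap in 21 of the 40, against 32.4%. Of those 16 calls, 8 were kept whichever array was left out. The count was 10 without WD with mesoderm replicate 2, and 11 with the replicate number as a block. Between UB and WD with mesoderm, 2 were higher (Adamts16 and Mmp17) and 20 lower in UB, against 13.6% and 16.6% (30.2% in all), and 27 of the 40 did not overlap, against 49.9%. The median difference of the 40 was -0.61, 0.29 and -0.92 in the 3 comparisons, beside -0.08, -0.01 and -0.01 over all genes tested. Of the 40, 12 were called in none. The share of all genes called in none was not counted, so that number has nothing to be set against.

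**Figure D2:**
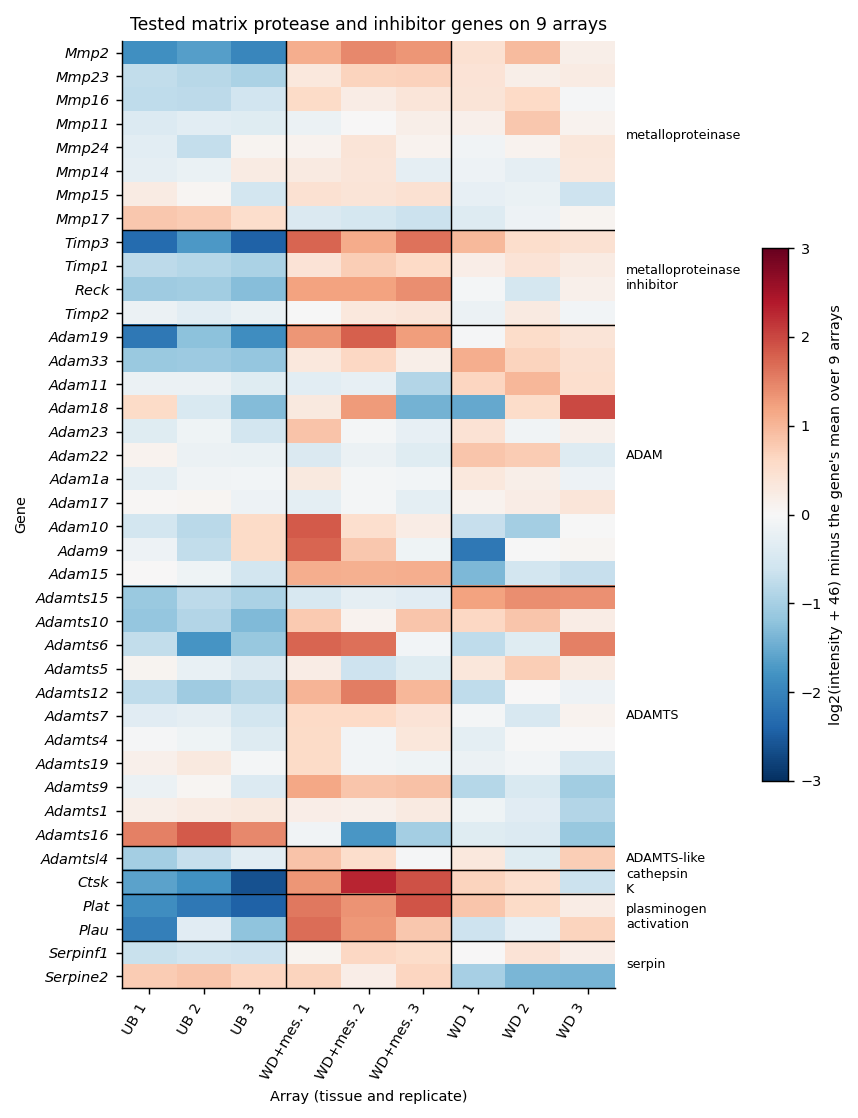
Signal of the 40 tested genes (rows, by family) on the 9 arrays (columns), as log2(intensity + 46) minus the gene's mean over all arrays; red is above and blue below that mean. Mmp2, Timp3, Adam19, Ctsk and Plat are blue on all UB arrays and red on all arrays of WD with mesoderm, while Adamts16, Mmp17 and Serpine2 are red on all UB arrays.

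**Figure D3:**
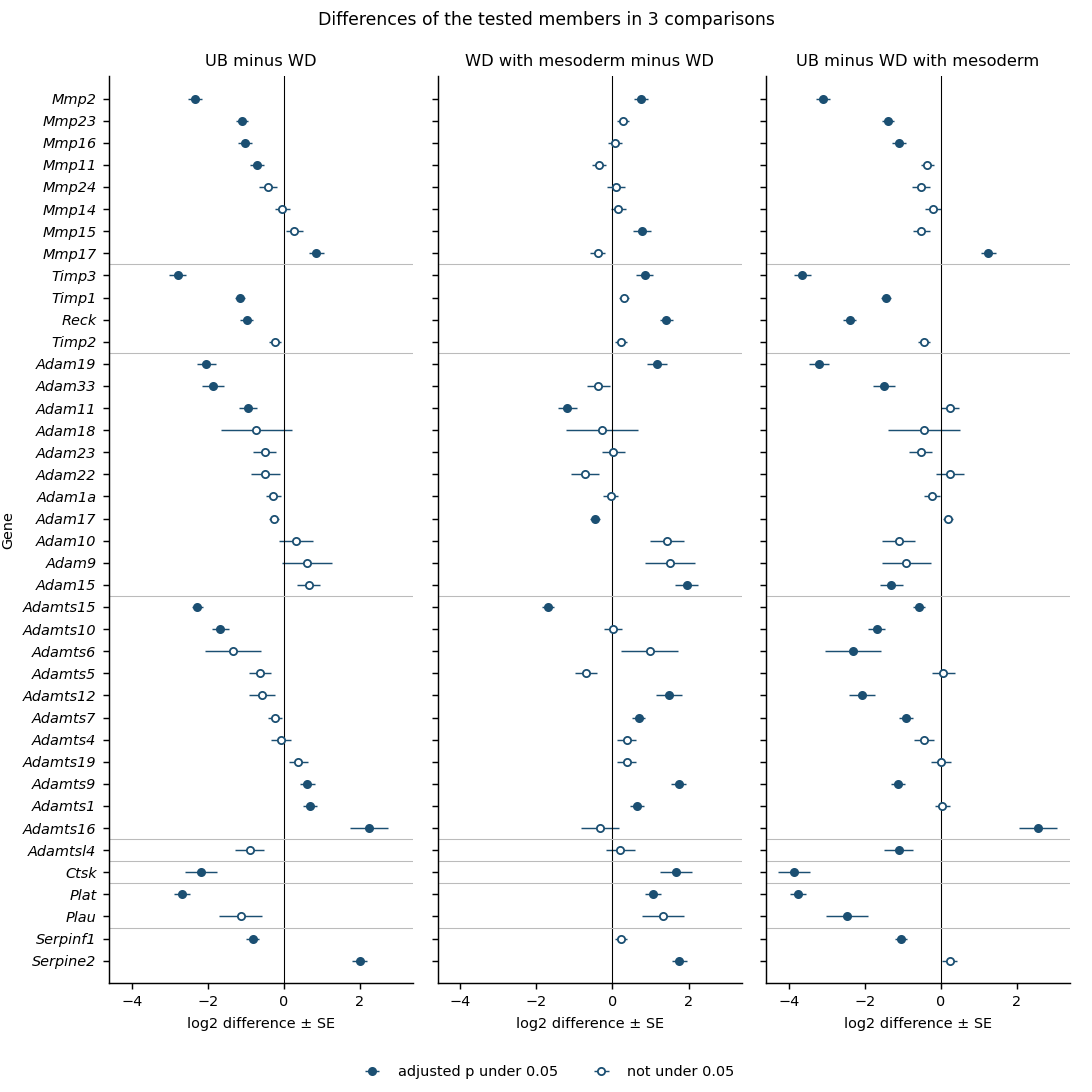
Differences of the 40 genes in the 3 comparisons (horizontal axis, log2 scale, bars ± SE), with filled points for adjusted p under 0.05. Points left of 0 outnumber those right of 0 in both comparisons of UB, with Adamts16 furthest right at 2.23 ± 0.50 against WD. Adamts16 passed the filter through the UB arrays alone.

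Among the secreted metalloproteinases, Mmp2 (gelatinase A, which cuts type IV and denatured collagens) differed most between tissues. Its signal was 2380, 2705 and 2206 in UB, 18590, 23434 and 21831 in WD with mesoderm and 11910, 16596 and 9811 in WD. The 3 tissues did not overlap. Mmp2 changed by -2.34 ± 0.18 in UB against WD (adjusted p = 3.25e-06) and by -3.11 ± 0.18 against WD with mesoderm (adjusted p = 1.42e-07). With mesoderm it was 1.70-fold higher than in WD (0.76 ± 0.18, adjusted p = 0.0178). That last call was lost without WD with mesoderm replicate 2 (0.0692) or 3 (0.0562) or WD replicate 1 (0.0582) or 3 (0.0532), and was 0.74 ± 0.23 within the 5 arrays of low spike ratio (adjusted p = 0.0895). Mmp11 (stromelysin-3, activated inside the cell by furin) had 6128, 6531 and 6343 in UB against 9072, 14129 and 8697 in WD, and was lower in UB by a log2 difference of -0.71 ± 0.18 (adjusted p = 0.0124). Its signal in WD with mesoderm, 7165 to 9118, overlapped that of WD. Mmp23, a short membrane-tethered member, gave 1857 to 2184 in UB, 4575 to 5948 in WD with mesoderm and 4134 to 4893 in WD. It was lower in UB than in WD by all 3 of its tested probe sets, with differences of -1.12 ± 0.16, -1.03 ± 0.17 and -0.95 ± 0.27.

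The membrane-type metalloproteinases went different ways. Mmp14 (MT1-MMP, the activator of Mmp2) was bright everywhere, with 11713, 12218 and 16618 in UB, 17112, 18067 and 11672 in WD with mesoderm and 12677, 11658 and 17572 in WD. The tissues overlapped, and the difference of UB and WD was -0.04 with a 95% interval of -0.49 to 0.41. The interval of WD with mesoderm against WD was -0.29 to 0.61. A dimmer probe set of Mmp14 gave 0.71 ± 0.24 there without overlap (adjusted p = 0.0762), and with spike batch in the model the difference of UB and WD was 0.55 ± 0.33 (adjusted p = 0.412). Mmp16 (MT3-MMP) had 1738, 1705 and 1971 in UB against 3899, 4527 and 2901 in WD, a fall of -1.03 ± 0.19 (adjusted p = 0.00196). In WD with mesoderm its 3494 to 4454 units overlapped WD. With spike batch in the model the call of Mmp16 against WD was lost (adjusted p = 0.164). Mmp17 (MT4-MMP, held in the membrane by a lipid anchor) went the other way. It had 2642, 2553 and 2176 in UB, 1085, 1015 and 930 in WD with mesoderm and 1128, 1332 and 1590 in WD. All UB arrays lay above all others, by 0.85 ± 0.20 against WD (adjusted p = 0.00764) and 1.24 ± 0.20 against WD with mesoderm (adjusted p = 0.000510). Mmp15 (MT2-MMP) was called only with mesoderm against WD among the 3 comparisons (0.78 ± 0.23, adjusted p = 0.0447). It had 2103, 1997 and 2119 units there against 1282, 1326 and 974 in WD, and that call was lost without any one of 8 arrays, the adjusted p reaching 0.108 without WD replicate 3. Mmp24 (MT5-MMP) differed by -0.43 ± 0.24 in UB against WD (adjusted p = 0.184); its other tested probe set was lower in UB (-0.76 ± 0.24, adjusted p = 0.0325).

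Of the 17 metalloproteinase genes, 9 did not pass the filter, among them the gelatinase Mmp9, matrilysin (Mmp7), the collagenases Mmp8 and Mmp13 and the stromelysins Mmp3 and Mmp10. Each of the 9 was at or below the 40th percentile on every array. Mmp9 ranged from 5.98 to 203 over the 9 arrays and Mmp7 from 5.76 to 50.9, and with no detection calls such signals cannot be told from background. Mmp13, Mmp12, Mmp3, Mmp10, Mmp8 and Mmp7 lie in this order in 1 cluster on chromosome 8 of the RefSeq gene table for GRCr8, with 0 to 2 genes between neighbours, all of them other Mmp genes. RefSeq promoter windows (250 bases before to 50 after the gene's start, GRCr8) were matched to 42 of the 64 members by gene ID, Mmp2, Mmp9, Mmp14 and Plat not among them. The AP-1 motif TGANTCA, which reads the same on both strands, was in 7 of the 42 (16.7%) and in 7.33% of all 27457 windows. Of these 7 genes, Adam19 alone passed the filter; the other 6 exceeded the 40th percentile on 0 arrays. Their matches are shown because 5 lie in the cluster of weak genes, 61 to 87 bases before the start, with 20 bases on each side and the motif in capitals:
Mmp13: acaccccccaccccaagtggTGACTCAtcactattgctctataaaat
Mmp12: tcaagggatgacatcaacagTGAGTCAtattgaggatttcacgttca
Mmp3: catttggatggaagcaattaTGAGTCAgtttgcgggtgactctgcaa
Mmp10: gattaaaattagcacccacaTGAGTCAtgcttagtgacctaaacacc
Mmp7: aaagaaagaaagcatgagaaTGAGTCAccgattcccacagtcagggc
Plaur: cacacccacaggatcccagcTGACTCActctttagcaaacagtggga
Adam19: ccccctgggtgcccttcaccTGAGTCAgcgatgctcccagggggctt
These windows lie at chr8:12782743-12782789, plus strand for Mmp13, chr8:12866545-12866591, plus strand for Mmp12, chr8:12925190-12925236, plus strand for Mmp3, chr8:12974626-12974672, plus strand for Mmp10, chr8:13132943-13132989, plus strand for Mmp7, chr1:89181260-89181306, plus strand for Plaur and chr10:30992572-30992618, plus strand for Adam19. The match began 83 bases before the start in Plaur and 169 in Adam19. A match is a description of letters and says nothing here about binding. The ETS motif AGGAAG, searched on both strands, was in 17 of the 42 (40.5%) and in 34.3% of all windows.

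Of the 4 inhibitors of metalloproteinases tested, Timp1, Timp3 and Reck were lower in UB than in WD, where 19.6% of all genes were, and Timp2 was not called. Timp3, which binds to the matrix and also blocks ADAM and ADAMTS proteases, had 784, 1210 and 726 in UB, 13721, 8881 and 12741 in WD with mesoderm and 8028, 5898 and 5588 in WD. The tissues did not overlap. Against WD the bud differed by -2.80 ± 0.23 (adjusted p = 4.70e-06), and against WD with mesoderm by -3.64 ± 0.23 (adjusted p = 2.55e-07), a 12.5-fold lower signal. Timp3 was higher with mesoderm than in WD by 0.85 ± 0.23 (adjusted p = 0.0316), but not without WD with mesoderm replicate 1 (0.0923) or 3 (0.0991) or WD replicate 2 (0.104) or 3 (0.0834). Timp1, a soluble inhibitor, had 4841, 4611 and 4302 in UB, 11202, 14018 and 12796 in WD with mesoderm and 9659, 11159 and 9986 in WD. It changed by -1.15 ± 0.13 in UB against WD (adjusted p = 7.01e-05), and by 0.30 ± 0.13 with mesoderm (adjusted p = 0.165). Reck, a lipid-anchored inhibitor of Mmp2, Mmp9 and Mmp14, had 3193, 3263 and 2740 in UB, 15486, 15641 and 17920 in WD with mesoderm and 6471, 4639 and 7546 in WD. It was lower in UB by -0.99 ± 0.18 against WD (adjusted p = 0.00167) and 2.66-fold higher with mesoderm than without (1.41 ± 0.18, adjusted p = 0.000312). With the spike batch as a term the fall of Reck was -1.19 ± 0.32 (adjusted p = 0.0716). Timp2, which inhibits Mmp2 and also helps Mmp14 to activate it, had 6826, 6187 and 6776 in UB, 7642, 9626 and 10040 in WD with mesoderm and 6806, 9327 and 7354 in WD. It differed by -0.23 in UB against WD, with a 95% interval of -0.58 to 0.11. Against WD with mesoderm it was -0.45 ± 0.16 (adjusted p = 0.0524), and was called without WD with mesoderm replicate 1 (0.0255) or WD replicate 2 (0.0304). A dimmer probe set of Timp2 gave 0.64 ± 0.79 in UB against WD and 1.06 ± 0.79 with mesoderm against WD, both uncalled. Timp4 did not pass, with 98.5 to 375 units.

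The promoter windows of the 3 inhibitors called lower in UB than in WD are shown, with ETS matches in capitals; Timp1 held 2, 230 and 94 bases before its start, and Timp3 and Reck held none of either motif.
Timp3: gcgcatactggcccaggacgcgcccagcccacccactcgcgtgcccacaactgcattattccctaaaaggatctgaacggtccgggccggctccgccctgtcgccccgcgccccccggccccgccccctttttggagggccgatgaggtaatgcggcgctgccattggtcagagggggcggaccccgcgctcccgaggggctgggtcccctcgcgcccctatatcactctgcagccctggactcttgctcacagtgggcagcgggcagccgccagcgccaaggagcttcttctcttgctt
Timp1: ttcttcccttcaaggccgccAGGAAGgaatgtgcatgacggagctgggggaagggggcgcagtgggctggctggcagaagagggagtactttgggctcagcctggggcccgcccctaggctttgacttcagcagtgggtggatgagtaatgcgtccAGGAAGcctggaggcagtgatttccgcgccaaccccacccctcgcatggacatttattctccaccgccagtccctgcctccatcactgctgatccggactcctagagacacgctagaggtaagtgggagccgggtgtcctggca
Reck: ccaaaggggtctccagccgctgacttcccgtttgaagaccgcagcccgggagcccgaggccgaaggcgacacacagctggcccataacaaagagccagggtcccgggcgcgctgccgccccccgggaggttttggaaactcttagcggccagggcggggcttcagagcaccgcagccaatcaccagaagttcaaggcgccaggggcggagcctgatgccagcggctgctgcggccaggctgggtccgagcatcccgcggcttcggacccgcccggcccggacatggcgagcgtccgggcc
They are at chr7:19459509-19459808, minus strand for Timp3, chrX:3771073-3771372, minus strand for Timp1 and chr5:62898467-62898766, plus strand for Reck, from RefSeq on GRCr8.

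**Figure D4:**
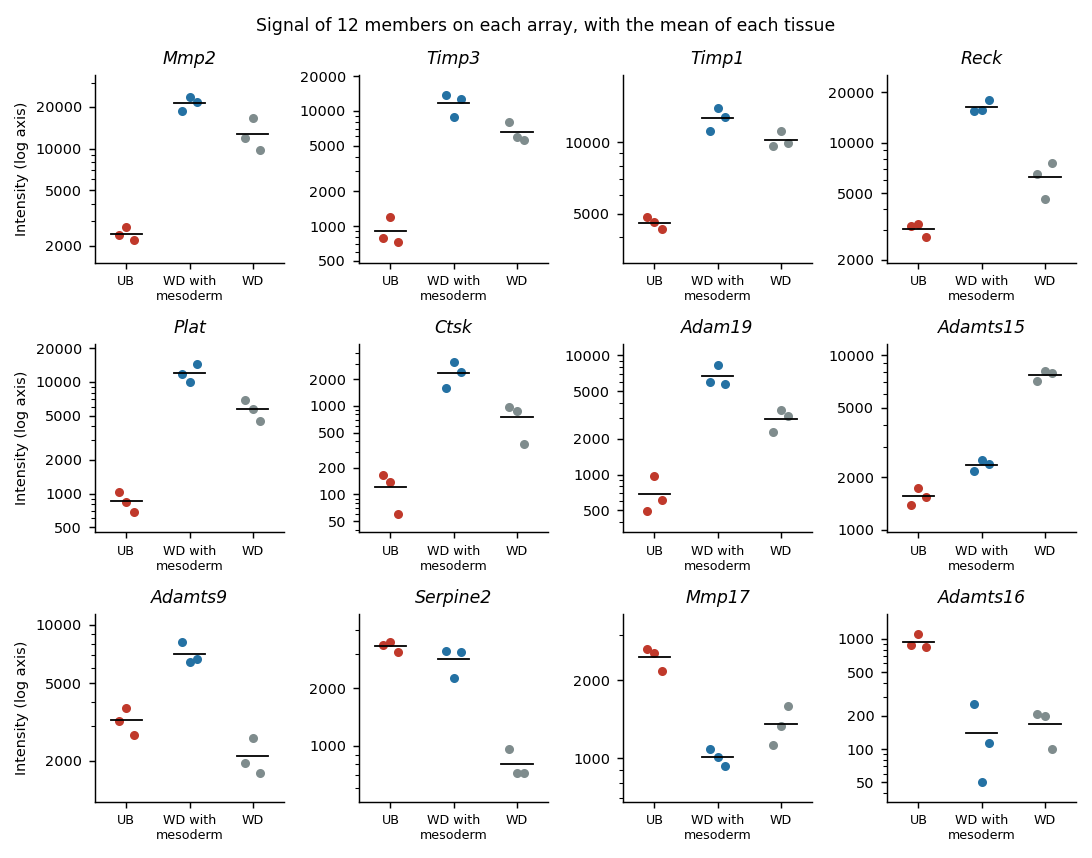
Signal of 12 genes on each array (vertical axis, intensity units, log scale, a scale of its own in each panel), with 1 point per array and a bar at the mean of the 3 arrays of a tissue. Mmp2, Timp3, Reck, Plat, Ctsk and Adam19 are lowest in UB and highest with mesoderm, Adamts15 is highest in WD, and Mmp17 and Adamts16 are highest in UB.

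Plat, the tissue-type plasminogen activator, had 1028, 839 and 684 in UB, 11764, 9969 and 14415 in WD with mesoderm and 6891, 5756 and 4508 in WD, with no overlap. The bud was lower than WD by -2.68 ± 0.21 (adjusted p = 2.89e-06) and than WD with mesoderm by -3.76 ± 0.21 (adjusted p = 7.93e-08), and WD with mesoderm was higher than WD by 1.07 ± 0.21 (adjusted p = 0.00496). All 3 calls of Plat were kept in each of the alternatives run. Plau (urokinase) was weak, with 24.7, 184 and 80.7 in UB, 899, 677 and 472 in WD with mesoderm and 145, 203 and 422 in WD. Plau passed the filter through WD with mesoderm alone, so its p-values are not independent of the filter. It was lower in UB than with mesoderm by -2.48 ± 0.56 (adjusted p = 0.00599), a size that depends on the pseudocount since 1 UB array lay below 46. Within the high spike ratio that difference was -2.03, where WD with mesoderm has 1 array and thus no spread of its own. Plaur, the urokinase receptor, stayed between 11.1 and 143 on all arrays and was not tested.

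Serpine2 (protease nexin 1, an inhibitor of thrombin, Plau and Plat) was high in the bud and with mesoderm. It had 3355, 3481 and 3074 in UB, 3138, 2255 and 3072 in WD with mesoderm and 961, 722 and 718 in WD. UB and WD with mesoderm overlapped, and both lay above WD, by 1.99 ± 0.20 (adjusted p = 2.04e-05) and 1.76 ± 0.20 (adjusted p = 0.000177). Both calls were kept in every alternative run. Serpinf1 (pigment epithelium-derived factor, a serpin that blocks no protease) had 5927, 6211 and 6101 in UB, 9960, 14564 and 13903 in WD with mesoderm and 9421, 12482 and 10766 in WD. It was lower in UB than in WD by -0.83 ± 0.16 (adjusted p = 0.00305). Serpinf2 and Serpine3 did not pass the filter.

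Cathepsin K (Ctsk), a collagenase that works at acid pH, had 166, 138 and 59.5 in UB, 1582, 3146 and 2388 in WD with mesoderm and 979, 878 and 373 in WD. It changed by -2.20 ± 0.42 in UB against WD (adjusted p = 0.00254), -3.86 ± 0.42 against WD with mesoderm (adjusted p = 2.38e-05) and 1.66 ± 0.42 with mesoderm against WD (adjusted p = 0.0216). All UB arrays were at or below their 40th percentile, so that the sizes of the differences of UB rest on weak signals. The call with mesoderm was lost without replicate 2 of WD with mesoderm (0.0949) or 3 (0.069) or WD replicate 3 (0.0576). Against WD the bud differed by -2.29 ± 0.79 with the spike batch as a term (adjusted p = 0.15).

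In the ADAM family 11 of 18 genes were tested. Adam19 (meltrin beta, which releases neuregulin) had 493, 972 and 615 in UB, 5940, 8270 and 5710 in WD with mesoderm and 2276, 3445 and 3071 in WD. The tissues did not overlap, and a fainter probe set of the gene was called in the same directions. The bud was lower than WD by -2.04 ± 0.26 (adjusted p = 0.000138) and than WD with mesoderm by -3.21 ± 0.26 (adjusted p = 1.68e-06). With mesoderm it was higher than in WD by 1.17 ± 0.26 (adjusted p = 0.0104), which was 1.27 ± 0.25 within the 5 arrays of low spike ratio. Adam33 had 229, 234 and 218 in UB, 688, 872 and 629 in WD with mesoderm and 1219, 900 and 777 in WD; it was lower in UB than in WD by -1.87 ± 0.30 (adjusted p = 0.000733), with all UB arrays at or below their 40th percentile. Adam15 had 608, 550 and 398 in UB, 1342, 1318 and 1336 in WD with mesoderm and 210, 394 and 353 in WD. It was higher with mesoderm than without by 1.96 ± 0.30 (adjusted p = 0.00125), with all WD arrays at or below their 40th percentile. The beta-actin ratio as a covariate took this call away (adjusted p = 0.0579).

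Adam11 differs from these enzymes in lacking a working protease site, as do Adam22 and Adam23. It had 934, 931 and 818 in UB, 841, 889 and 558 in WD with mesoderm and 1669, 2164 and 1510 in WD, which lay above the rest. Adam11 was lower than in WD by -0.94 ± 0.24 in UB (adjusted p = 0.013) and -1.19 ± 0.24 with mesoderm (adjusted p = 0.00726); without WD replicate 2 the call for UB was lost (0.0528), and with spike batch in the model that difference was -0.35 ± 0.40. Adam17, which releases TNF and ligands of the EGF receptor, had 10105, 10378 and 8930 in UB, 8083, 9516 and 8136 in WD with mesoderm and 10772, 11656 and 12834 in WD. It was lower with mesoderm by -0.45 ± 0.13 (adjusted p = 0.0409), a call lost when any one of 8 arrays was left out, with an adjusted p of up to 0.107 without WD with mesoderm replicate 3. Adam10, which cuts Notch, had 1083, 905 and 2422 in UB, 5884, 2299 and 1892 in WD with mesoderm and 983, 770 and 1611 in WD. With mesoderm it differed by 1.43 ± 0.45 (adjusted p = 0.0562), and a call was reached without UB replicate 3 (0.0333), WD with mesoderm replicate 3 (0.0451) or WD replicate 3 (0.04). Within the 5 arrays of low spike ratio it was 1.74 ± 0.42 (adjusted p = 0.0335). The 7 untested members of the family were Adam2, Adam3a, Adam4, Adam6, Adam7, Adam8 and Adam32.

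Of the 12 ADAMTS genes 11 were tested, and 3 were higher and 2 lower in UB than in WD, beside 13.4% and 19.6% of all genes. Adamts16, which can cut fibronectin, had 880, 1117 and 838 in UB, 255, 50.7 and 114 in WD with mesoderm and 208, 199 and 101 in WD. The gene passed the filter through the UB arrays alone, so its p-values are not independent of the filter. No array of WD or WD with mesoderm exceeded its filter percentile, so the sizes of the differences rest on weak signals. All UB arrays lay above all others, by 2.23 ± 0.50 against WD (adjusted p = 0.00594) and 2.56 ± 0.50 against WD with mesoderm (adjusted p = 0.0022). With spike batch in the model the first was 2.32 ± 0.91 (adjusted p = 0.207). Adamts15, a versican-cutting protease, was highest in WD. It had 1380, 1747 and 1550 in UB, 2178, 2505 and 2395 in WD with mesoderm and 7090, 8149 and 7905 in WD. It changed by -2.28 ± 0.16 in UB (adjusted p = 1.03e-06) and by -1.69 ± 0.16 with mesoderm (adjusted p = 6.69e-05), both against WD and both kept in every alternative run. UB was lower than WD with mesoderm by -0.59 ± 0.16 (adjusted p = 0.0148), but not without UB replicate 1 (0.0802) or WD with mesoderm replicate 2 (0.0549).

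Adamts9 and Adamts1, which also cut versican, were higher in both UB and WD with mesoderm than in WD. Adamts9 had 3199, 3751 and 2712 in UB, 8121, 6416 and 6651 in WD with mesoderm and 1956, 2628 and 1730 in WD. With mesoderm it rose by 1.74 ± 0.19 (adjusted p = 0.000168), or 1.78 ± 0.24 within the arrays of low spike ratio. The rise of UB over WD was 0.61 ± 0.19 (adjusted p = 0.0317) and was lost without UB replicate 1 (0.09) or 2 (0.113) or WD replicate 1 (0.0824) or 3 (0.097). Another probe set of Adamts9 gave -0.37 ± 0.63 there, uncalled. Adamts1 had 3112, 3252 and 3358 in UB, 3130, 3022 and 3321 in WD with mesoderm and 2506, 2163 and 1479 in WD. Its differences from WD were 0.68 ± 0.19 in UB (adjusted p = 0.0199) and 0.64 ± 0.19 with mesoderm (adjusted p = 0.0468). The first was lost without any one UB array (adjusted p up to 0.0631 without UB replicate 3) or WD replicate 3 (0.055), and the second without any one of 8 arrays, up to 0.117 without WD with mesoderm replicate 3.

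Adamts10, a protease of fibrillin microfibrils, had 1501, 1817 and 1333 in UB, 5885, 3645 and 6051 in WD with mesoderm and 5248, 6079 and 3945 in WD. It was lower in UB than in WD by -1.68 ± 0.23 (adjusted p = 0.000261) and by -2.06 ± 0.41 with the spike batch as a term. A dimmer probe set gave -0.43 ± 0.19, uncalled. Adamts7 and Adamts12, which cut the cartilage matrix protein COMP, were higher with mesoderm. Adamts7 had 4587, 4611 and 4013 with mesoderm against 2875, 2148 and 3236 in WD, a rise of 0.69 ± 0.18 (adjusted p = 0.0268), lost without WD with mesoderm replicate 1 (0.0657) or 2 (0.0827) or WD replicate 1 (0.0521) or 2 (0.0833). Adamts12 had 958, 1396 and 955 against 250, 455 and 405 in WD, a rise of 1.48 ± 0.34 (adjusted p = 0.0137), lost without WD with mesoderm replicate 2 (0.0677). Adamts12 passed the filter through WD with mesoderm alone, so its p-values are not independent of the filter. UB was lower than WD with mesoderm in Adamts7 (-0.92 ± 0.18), Adamts12 (-2.07 ± 0.34) and Adamts6 (-2.32 ± 0.74), the last with UB signals of 88.1, 19.4 and 56.1. The call for Adamts6 was lost without any one UB array or WD with mesoderm replicate 1 or 2, the adjusted p reaching 0.137. Adamts4, Adamts5 and Adamts19 were called in no comparison, although the dimmer probe set of Adamts5 was lower in UB than in WD (-1.08 ± 0.32, adjusted p = 0.0248). Of the ADAMTS-like proteins, which lack the protease domain, Adamtsl4 alone was tested, and it was lower in UB than with mesoderm by -1.11 ± 0.38 (adjusted p = 0.0499). That call was lost without any one of 6 arrays, up to an adjusted p of 0.177 without UB replicate 1.

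**Figure D5:**
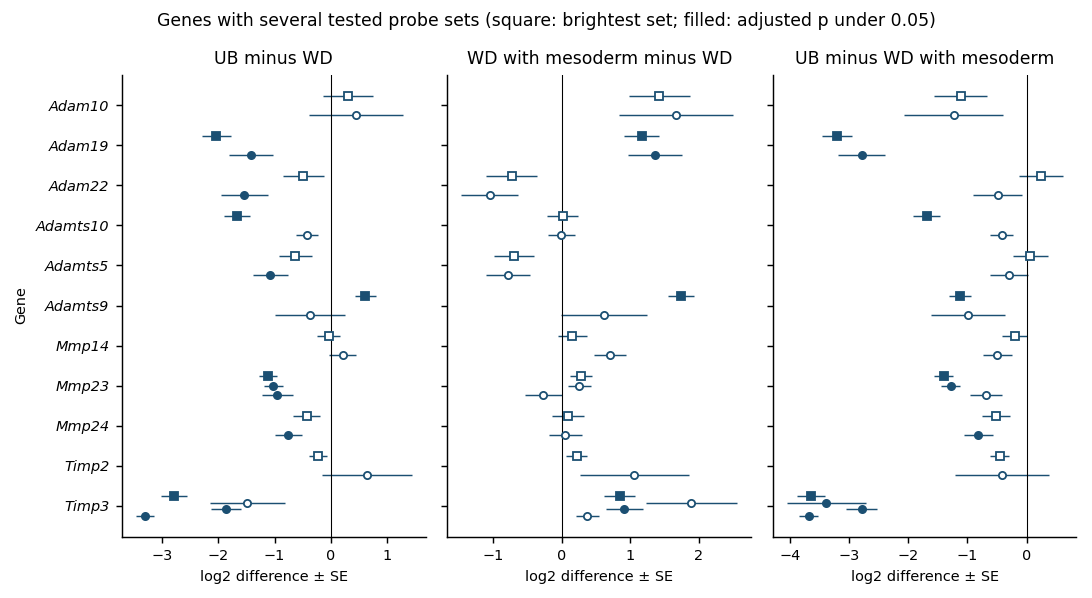
Differences (horizontal axis, log2 scale, bars ± SE) of the 11 genes with several tested probe sets, with a square for the probe set that represents the gene, circles for the others and filled symbols for adjusted p under 0.05. No gene had probe sets called in opposite directions in these comparisons, and the 4 of Timp3 all lie left of 0 for UB against WD, from -3.30 to -1.49.

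Over all probe sets tested, 29.9% were called between UB and WD, 12.7% between WD with mesoderm and WD and 25.5% between UB and WD with mesoderm. Of the 11 genes with several tested probe sets, 5 had all of them alike in call between UB and WD, and 6 (Adam22, Adamts5, Adamts9, Adamts10, Mmp24 and Timp3) were called by only some. In WD with mesoderm against WD, Adamts9 and Timp3 were called by only some, and in UB against WD with mesoderm Adamts9, Adamts10, Mmp23 and Mmp24 were. For Timp3 the probe sets gave -2.80 ± 0.23, -3.30 ± 0.16, -1.87 ± 0.27 and -1.49 ± 0.67 in UB against WD, the last uncalled.

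Other genes of matrix turnover, a list of 50 outside the family rule, had 39 tested. Against WD, 1 was higher in UB (Ctsh, a lysosomal cathepsin) and 26 lower, beside 13.4% and 19.6% of all genes. Pcolce, an enhancer of procollagen cleavage, had 351, 307 and 175 in UB against 5108, 6147 and 5432 in WD (-4.15 ± 0.21, adjusted p = 1.10e-07). Anxa2 and S100a10, which together bind plasminogen and Plat at the cell surface, changed by -2.27 ± 0.16 and -2.05 ± 0.12 in UB against WD. Tgm2, a crosslinking transglutaminase, changed by -3.28 ± 0.19, the secreted protease Htra3 by -3.83 ± 0.28 and Serping1 by -1.76 ± 0.17. Against WD with mesoderm, 7 were higher in UB (Ctsh, Hpn, Prss23, Prss8, Spint1, Spint2 and St14) and 24 lower, beside 13.6% and 16.6% of all genes. Those with the smallest p were all lower in UB. They were Pcolce (-5.69 ± 0.21), S100a10 (-2.70 ± 0.12), Anxa2 (-3.13 ± 0.16), Mme (-3.88 ± 0.22), Loxl2 (-1.86 ± 0.15) and Serping1 (-2.03 ± 0.17). St14 and Spint1, an epithelial membrane protease and its inhibitor, belong to those 7. St14 had 19896, 19793 and 18780 in UB, 3284, 6406 and 5469 in WD with mesoderm and 11816, 15554 and 12418 in WD. With mesoderm against WD, 9 were higher and 9 lower, beside 6.47% and 8.24% of all genes. Mme (neprilysin), a membrane peptidase, was higher by 2.24 ± 0.22 and Pcolce by 1.53 ± 0.21, while Spint1 changed by -1.84 ± 0.18, St14 by -1.43 ± 0.21 and Prss23 by -1.62 ± 0.15. The duct epithelium markers fell in 8 of 10 genes with mesoderm against WD, the direction of Spint1, St14 and Prss23 in that comparison. Whether these genes follow the markers was not tested.

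The median difference of the mesenchyme markers was -3.55 in UB against WD, 1.14 with mesoderm against WD and -4.55 in UB against WD with mesoderm, beside -2.34, 0.76 and -3.11 for Mmp2. In the same comparisons the medians were -4.13, 0.39 and -5.28 for coelomic epithelium markers and -1.30, 1.72 and -2.90 for smooth muscle markers. They were -0.88, 2.50 and -3.77 for endothelial markers, -2.43, -0.05 and -2.78 for red cell markers and -1.32, 0.51 and -1.90 for macrophage markers. For bud tip markers they were 3.91, 0.26 and 3.45, and for duct epithelium markers -0.34, -1.60 and 0.93. Nephron progenitor markers had 0.23, 1.57 and -0.88. Serpine2, Mmp17, Adamts1 and Adamts9, higher in UB than in WD, went against the mesenchyme markers in that comparison. Adamts16 was also higher in UB, but it passed the filter through the UB arrays alone, so its direction is not independent of the filter. Adamts15, Adam11 and Adam17, lower with mesoderm than in WD, went against the mesenchyme markers in that comparison. Whether these members follow the bud tip, duct epithelium or nephron progenitor markers was not tested. With the spike batch as a term, 8 of the 20 calls between UB and WD were kept, those of Mmp2, Mmp23, Timp1, Timp3, Plat, Adamts10, Adamts15 and Serpine2. Lost were those of Mmp11, Mmp16, Mmp17, Reck, Ctsk, Serpinf1, Adam11, Adam19, Adam33, Adamts1, Adamts9 and Adamts16. No spike batch holds both UB and WD, so that this term rests on WD with mesoderm replicate 3. Within the arrays of low ratio, 7 of the 16 calls of WD with mesoderm against WD were kept, for Reck, Plat, Serpine2, Adam15, Adam19, Adamts9 and Adamts15. The 4 arrays of high ratio hold 1 array of WD with mesoderm, which has no spread of its own. They cannot show which calls of UB against WD with mesoderm are kept.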

How the data were processed

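Total RNA of 9 tissue pools was measured on Affymetrix arrays with 1 colour, per the labels' protocols. The deposited table holds 1 intensity per probe set and array, made by the authors with GCOS, the Affymetrix software, per the submitters' processing notes; its version and summary algorithm are not given in the sources. The values are on a linear scale, and the mean without the top and bottom 2% of probe sets is 2501 on all arrays, so a difference is set against the bulk of the array. Of 31099 probe sets, 57 were controls, 20826 had 1 symbol in the platform table, 436 several and 9780 none. All 64 member genes matched the GRCr8 gene table by Entrez ID, with 0 changed symbols.

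Tests used R 4.3.3 and limma 3.58.1 on log2(intensity + 46), 46 being the 10th percentile of all values, which understates differences of weak genes. The fit had tissue as its only term, all 9 arrays, a variance trend, and 6 residual and 6.08 prior degrees of freedom. The Benjamini-Hochberg adjustment ran over the 20330 probe sets tested, separately for each comparison. The procedure was tested on simulated data. No depth applies to arrays; their number, 3 per tissue, limits precision.

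The members, lists and tests were chosen with earlier results of these data known. Named were all called members and 20 fixed ones, 1 of which is not reported here, and up to 6 called genes of the other list per comparison with the smallest p; Ctsh, Hpn, Prss8 and Spint2, and the other genes outside it, were picked with their values in view. Alternatives were other scalings, pseudocounts, filters, variance models, array weights, fits of 2 tissues, a replicate block, a 2-fold minimum, the mean of a gene's probe sets, a spike batch term (ratio above 2 or not), fits within a batch, a beta-actin covariate, and leaving out each array. Same-numbered arrays did not deviate together throughout (correlations of deviations from -0.35 to 0.28), so the numbers were not taken as pairs.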

Additional observations from a re-analysis of the deposited data

How the results depend on the processing

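Of 58 calls of single member genes in the 3 comparisons, 28 were kept in every alternative run, 30 were lost in at least 1 and 0 were reversed. Counts of called members were 20 for UB against WD, 16 for WD with mesoderm against WD and 22 for UB against WD with mesoderm. A 2-fold minimum left 13 and 10 in the first and second of these. The spike batch as a term left 8 in UB against WD. In WD with mesoderm against WD, 8 were called within the arrays of low spike ratio and 8 with beta-actin ratio in the model. Lost there with the beta-actin ratio were the calls of Adam11, Adam15, Adam17, Adam19, Adamts7, Adamts12, Mmp2 and Mmp15. In UB against WD the same covariate took away the calls of Adam11, Adamts9, Ctsk, Mmp11 and Mmp17. Their adjusted p became 0.0898, 0.0811, 0.0683, 0.102 and 0.105. In UB against WD with mesoderm it took away that of Adamtsl4 (adjusted p = 0.0634). Requiring a signal above the 40th percentile on all 9 arrays left 14 in UB against WD with mesoderm, because fewer members were tested. Leaving out 1 array gave 18 to 20, 10 to 15 and 19 to 23. The lowest of the second range, 10, came without WD with mesoderm replicate 2. With the replicate block 20, 11 and 20 were called. For the other alternatives the cause of a lost call was not tested. The median difference of all probe sets between UB and WD was -0.12 as deposited, 0.04 with quantile normalization and 0.02 with median centring. In that order, the members' split between UB and WD was 5 higher and 15 lower, 6 and 14, and 5 and 15. Over all 20330 probe sets tested it was 2297 higher and 3776 lower, 2515 and 2433, and 3171 and 2775. More probe sets were thus lower than higher in UB only as deposited among these scalings. Adam18, Adamts6 and Plau each had an array below the pseudocount of 46, where signal over background limits the size of a difference.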

Other observations

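WD with mesoderm replicate 1 was the highest of all 9 arrays for Adam10, Adam9 and Plau, which were picked after their values were seen. Adam10 had 5884 units there against 1892 and 2299 on the other arrays of that tissue, and its fainter probe set had 3598 against 339 and 835. Adam9 had 1368 against 336 and 685. Groups of 3 arrays were not tested for outlying values.

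Neighbouring members did not always share a pattern. Adamts1 and Adamts5 lie side by side on chromosome 11 (GRCr8) and differed between UB and WD by 0.68 ± 0.19 and -0.63 ± 0.29 (adjusted p = 0.0199 and 0.122). Serpinf1 and Serpinf2 likewise lie side by side, and Serpinf1 had 5927 to 14564 units over the 9 arrays while Serpinf2 had 19.0 to 137. Adamts15 lies next to Adamts8, which did not pass the filter at 68.2 to 555 units. No test was made of whether neighbours differ.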
